A study of Mus musculus with 6 samples.

Results

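The Dlx homeobox genes encode a small family of DNA-binding transcription factors that switch on the program of GABAergic neurons in the ventral forebrain. In the mouse they lie in pairs that face each other tail to tail, and the forebrain uses the pairs Dlx1 and Dlx2 and Dlx5 and Dlx6. Dlx1 and Dlx2 act first, in dividing progenitors of the ganglionic eminences, and Dlx5 and Dlx6 act later, in cells that leave the cycle. Dlx6os1, which includes the long non-coding RNA called Evf2, is transcribed across the Dlx5 and Dlx6 locus from the strand opposite Dlx6 and is known to tune the use of the enhancers between them. The genes described here were those of the deposited table whose gene name was Dlx1, Dlx2, Dlx5, Dlx6 or Dlx6os1. They came to 6 of 29659 genes, because the name Dlx6os1 stands on 2 of them.

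RNA was sequenced from the lateral ganglionic eminence (LGE), the embryonic tissue that makes striatal projection neurons, of C57BL/6 mice at embryonic day 16.5. The Zfhx3-CKO group (3 libraries) is labelled Dlx5/6-Cre; Zfhx3F/F, and the control group (3 libraries) Dlx5/6-Cre, with no floxed Zfhx3 allele given. Zfhx3 is a transcription factor gene whose product holds zinc fingers and homeodomains. Both groups thus carried the Cre driver, a transgene under regulatory sequence of the Dlx5 and Dlx6 locus, and recombination is limited to cells in which that sequence is or was active. Cre itself was not analysed here. Nothing in the labels says whether a library came from 1 embryo or from pooled ones, so the p-values speak only of library-to-library spread, part of which may be technical.

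Library totals were 18960574 to 20311799 counts in the Zfhx3-CKO group and 15938590 to 16753355 in the control group. Zfhx3 itself was measured at 95.1 ± 6.75 CPM (counts scaled to a common library total) in Zfhx3-CKO libraries and 123.0 ± 19.3 CPM in control libraries (SD, n = 3 per group). By library it was 98.7, 87.3 and 99.3 CPM in Zfhx3-CKO libraries 1, 2 and 3. Control libraries 1, 2 and 3 held 133.7, 134.6 and 100.8 CPM, so control library 3 stood near the Zfhx3-CKO level. The log2 fold change of Zfhx3 was -0.37 and did not pass (edgeR adjusted p 0.0911). The counts cover the whole gene and not only the floxed part. Xist stood at 55947 to 59631 counts in Zfhx3-CKO libraries and at 5 to 9 in control libraries, so sex and genotype cannot be told apart; Dlx1 and Dlx2 lie on chromosome 2, and Dlx5, Dlx6 and Dlx6os1 on chromosome 6. All 9 LGE and striatal markers passed the filter on low counts, none was at 0 in all libraries, and their summed level was 2022 to 2236 CPM in Zfhx3-CKO libraries and 2707 to 3165 CPM in control libraries. The 9 did not move together. At an edgeR adjusted p under 0.05, 5 were lower, 1 was higher and 3 did not pass. Of 5 markers of the medial ganglionic eminence 3 were higher and 2 did not pass. Over all tested genes 3.87% were called higher and 3.48% lower. The 11 markers of cortical excitatory neurons summed to 205, 52.8 and 290.1 CPM in Zfhx3-CKO libraries 1, 2 and 3 and to 54.0 to 57.1 CPM in control libraries, so that Zfhx3-CKO libraries 1 and 3 stood apart on them and library 2 did not.

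The start regions of the members for which RefSeq sequence was at hand (build GRCm38.p6, 250 bases before to 50 bases after the start, 5′ to 3′ on the gene's strand) are shown because those of Dlx1 and Dlx2 differ in base composition from those of Dlx6os1. None was at hand for Dlx5 or Dlx6, and that of the antisense gene Dlx6os2, not printed, was 51.7% G or C with neither of the words below. Capitals mark the homeodomain core words TAATTA and TAATTG, searched on both strands. The Dlx1 window lies at chr2:71529195-71529494 (plus strand), the Dlx2 window at chr2:71546705-71547004 (minus strand), and the Dlx6os1 windows at chr6:6869484-6869783 and chr6:6861634-6861933 (minus strand).
Dlx1: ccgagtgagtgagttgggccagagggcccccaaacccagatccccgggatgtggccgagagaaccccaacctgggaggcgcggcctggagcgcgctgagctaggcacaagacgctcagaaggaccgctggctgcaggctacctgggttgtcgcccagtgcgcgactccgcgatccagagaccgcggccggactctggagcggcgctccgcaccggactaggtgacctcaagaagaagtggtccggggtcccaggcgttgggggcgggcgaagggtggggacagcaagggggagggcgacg
Dlx2: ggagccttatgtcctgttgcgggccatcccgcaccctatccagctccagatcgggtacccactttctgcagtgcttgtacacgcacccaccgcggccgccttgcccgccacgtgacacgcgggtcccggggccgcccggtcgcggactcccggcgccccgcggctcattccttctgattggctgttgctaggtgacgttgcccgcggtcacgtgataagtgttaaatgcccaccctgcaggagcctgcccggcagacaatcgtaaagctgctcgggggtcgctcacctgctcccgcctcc
Dlx6os1, first start: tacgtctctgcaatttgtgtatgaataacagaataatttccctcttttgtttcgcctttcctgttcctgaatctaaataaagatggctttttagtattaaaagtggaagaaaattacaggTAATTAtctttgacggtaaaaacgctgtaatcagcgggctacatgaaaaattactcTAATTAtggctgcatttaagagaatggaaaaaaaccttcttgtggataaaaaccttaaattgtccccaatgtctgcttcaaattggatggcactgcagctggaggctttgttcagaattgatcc
Dlx6os1, second start: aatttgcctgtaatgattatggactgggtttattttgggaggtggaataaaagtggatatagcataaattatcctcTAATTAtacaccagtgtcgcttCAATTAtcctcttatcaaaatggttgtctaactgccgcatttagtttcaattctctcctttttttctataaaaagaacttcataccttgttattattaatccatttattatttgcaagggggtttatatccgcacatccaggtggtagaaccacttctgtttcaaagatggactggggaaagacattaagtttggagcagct
The Dlx1 and Dlx2 windows were 69.3% and 66.3% G or C and held neither word. The Dlx6os1 windows were 35.7% and 35.3% G or C, against a median of 52.7% over 32851 promoter windows. The first start had 2 TAATTA words, at 130 and 74 bases before it, and lies in the gap between Dlx6 and Dlx5. That start, at 6869533, lies inside the deposited Dlx6os1 gene, whose 5′ end is at 6871592. The Dlx1 start, at 71529445, likewise lies inside its deposited gene, which begins at 71528113. For Dlx2 the start and the 5′ end of the deposited gene are the same (71546754). The second start had 1 TAATTA word and 1 TAATTG word, which the printed strand reads as CAATTA. The word TAATTA occurs in 5.29% of all promoter windows of this length and either word in 12.4%; a match describes these letters and is not a binding site.

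None of the 5 members that could be tested passed the test between the Zfhx3-CKO and the control LGE. The 5 genes had log2 fold changes between -0.20 and 0.24, with 2 above 0 and 3 below, and edgeR's quasi-likelihood test gave Benjamini-Hochberg adjusted p of 0.213 to 0.736. At an unadjusted p under 0.05 the count was also 0, where 25.6% of all tested genes had such a p. Over the 16551 tested genes 7.35% were called at an adjusted p under 0.05. DESeq2 called 0 of the 5 as well. The sixth gene, a 146-base second entry named Dlx6os1 (ENSMUSG00000098326) that overlaps the 5′ end of the first, held 0 to 2 counts per library and was below the filter on low counts. In bulk tissue, fewer cells of a type and less RNA per cell cannot be told apart, so a level describes the piece of LGE as a whole.

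Dlx1 (ENSMUSG00000041911, chromosome 2, 71528113 to 71533981, plus strand, GRCm38), which acts with Dlx2 to specify GABAergic progenitors, was measured at 149, 167 and 137.8 FPKM in Zfhx3-CKO libraries 1, 2 and 3, against 134, 146 and 152 FPKM in control libraries 1, 2 and 3. FPKM is the authors' level per gene length and library total. Zfhx3-CKO libraries 1 and 3 lay inside the control range, and Zfhx3-CKO library 2 was the highest of the 6. The log2 fold change was 0.07 (SE 0.08; 95% interval -0.12 to 0.27; edgeR adjusted p 0.626). The interval leaves room for a fall of up to 7.8% or a rise of up to 20.3%.

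Dlx2 (ENSMUSG00000023391, chromosome 2, 71543408 to 71546754, minus strand) faces Dlx1 across a gap of 9426 bases and encodes the factor with the broadest role in early ventral progenitors. It was measured at 162, 206 and 139.8 FPKM in Zfhx3-CKO libraries 1, 2 and 3, against 126, 145 and 159.7 FPKM in control libraries 1, 2 and 3. Libraries 1 and 2 of the Zfhx3-CKO group lay above all control libraries, and library 3 lay among them. Of the 5, Dlx2 had the largest estimate, a log2 fold change of 0.24 (SE 0.14; 95% interval -0.08 to 0.56; edgeR adjusted p 0.318). A rise of up to 47.6% is inside that interval. Most of the estimate came with 1 library: without Zfhx3-CKO library 2 the log2 fold change was 0.08 (adjusted p 0.696).

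Dlx5 (ENSMUSG00000029755, chromosome 6, 6877805 to 6882085, minus strand), used in postmitotic precursors and in olfactory and cortical interneuron lineages, was measured at 61.9, 82.4 and 62.1 FPKM in Zfhx3-CKO libraries 1, 2 and 3, against 65.8, 73.4 and 79.5 FPKM in control libraries 1, 2 and 3. Zfhx3-CKO libraries 1 and 3 were the lowest of the 6 and library 2 the highest. With groups that overlap in this way the log2 fold change was -0.08 (SE 0.12; 95% interval -0.36 to 0.20; edgeR adjusted p 0.736). Without Zfhx3-CKO library 2 it was -0.23, with an unadjusted p of 0.0336 and an adjusted p of 0.155.

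Dlx6 (ENSMUSG00000029754, chromosome 6, 6863334 to 6868568, plus strand), the partner of Dlx5 across a gap of 9236 bases, was measured at 16.5, 18.1 and 15.5 FPKM in Zfhx3-CKO libraries 1, 2 and 3, against 18.3, 20.5 and 18.8 FPKM in control libraries 1, 2 and 3. Each Zfhx3-CKO library was lower than each control library. It was the 1 member of the 5 whose groups did not overlap; 31.4% of all tested genes had groups that did not overlap in CPM, 15.9% in this direction. The log2 fold change of -0.20 (SE 0.09; 95% interval -0.40 to 0.01) did not pass (edgeR unadjusted p 0.0587, adjusted p 0.213). A fall of more than 24.4% is outside the interval.

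Dlx6os1 (ENSMUSG00000090063, chromosome 6, 6820189 to 6871592, minus strand), whose gene spans the whole of Dlx6, was measured at 103.7, 109 and 97.0 FPKM in Zfhx3-CKO libraries 1, 2 and 3, against 122, 110.2 and 100.1 FPKM in control libraries 1, 2 and 3. The highest values were in control libraries 1 and 2, and control library 3 lay inside the Zfhx3-CKO range. Its log2 fold change was -0.10 (SE 0.09; 95% interval -0.29 to 0.10; edgeR adjusted p 0.518). In the gene models of GENCODE vM21, whose gene coordinates equal the deposited ones for all these genes, Dlx6os1 shares no exonic base with Dlx6. Reads of the pair are therefore separable by position even in a library kit that does not mark strand, apart from unspliced RNA.

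**Figure D1:**
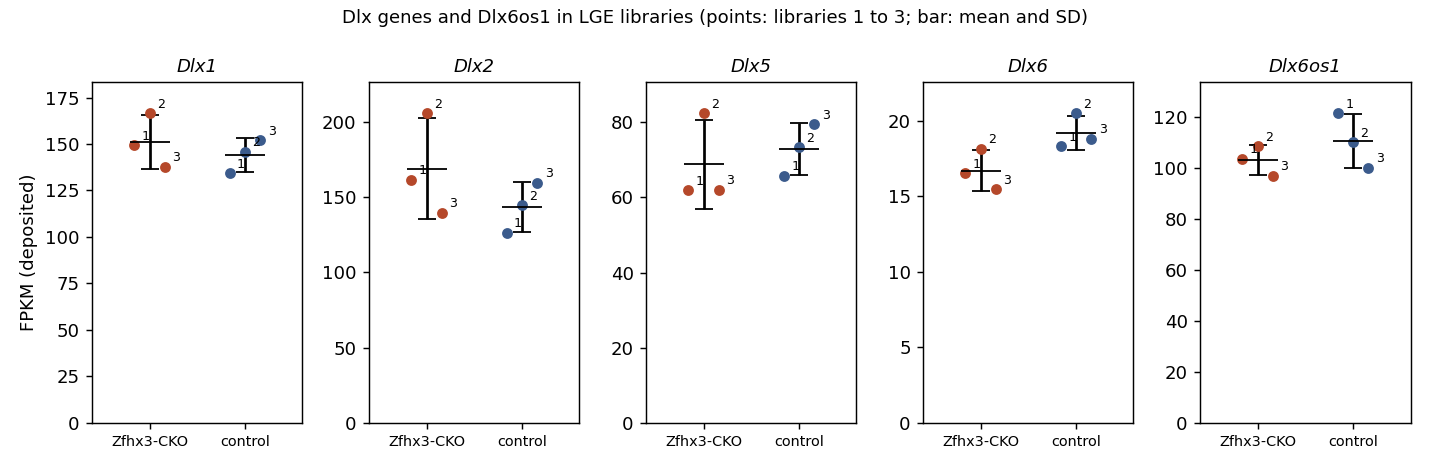
Deposited FPKM of Dlx1, Dlx2, Dlx5, Dlx6 and Dlx6os1 in the 3 Zfhx3-CKO and 3 control libraries; points carry the library number, and bars are mean and SD. The groups overlap for Dlx1, Dlx2, Dlx5 and Dlx6os1, and for Dlx6 the Zfhx3-CKO libraries (15.5 to 18.1) sit below the control libraries (18.3 to 20.5).

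Another 4 genes of the table have names that begin with Dlx. Dlx1as, an antisense RNA of the Dlx1 locus, was measured at 23.5, 25.1 and 22.6 FPKM in Zfhx3-CKO libraries and at 21.0, 20.6 and 20.7 FPKM in control libraries. Its groups did not overlap, yet the log2 fold change of 0.20 (SE 0.08; 95% interval 0.02 to 0.38) did not pass (edgeR unadjusted p 0.0371, adjusted p 0.165). Dlx1as shares 335 exonic bases with Dlx1, 20.6% of its own exonic length, and without strand those reads cannot be told apart. The same holds for Dlx6os2, which shares 104 exonic bases with Dlx6 and was measured at 1.43 to 2.77 FPKM in Zfhx3-CKO libraries and 1.29 to 2.56 FPKM in control libraries (log2 fold change 0.18, edgeR adjusted p 0.778). Dlx3, known from placenta, skin and teeth, held 0 to 1 counts per Zfhx3-CKO library and 1 to 2 per control library. Its partner Dlx4 held 0 counts in each Zfhx3-CKO library and 0 to 1 in control libraries, so both were at the limit of detection. In the authors' deposited table the 5 tested members are marked not significant, with adjusted p of 0.281 to 0.809, and the shorter table of 3726 genes holds 0 Dlx genes.

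Within a library the members stood in a near-constant order of FPKM. Dlx2 averaged 169 ± 33.7 FPKM in the Zfhx3-CKO group and 144 ± 16.7 FPKM in the control group, and Dlx1 151 ± 14.5 FPKM in the Zfhx3-CKO group and 144 ± 8.92 FPKM in the control group (SD over 3 libraries). These highest levels, of Dlx2 and Dlx1, overlapped within each group. Dlx6os1 followed, at 103 ± 5.82 FPKM in the Zfhx3-CKO and 111 ± 10.7 FPKM in the control group, then Dlx5 at 68.8 ± 11.8 FPKM in the Zfhx3-CKO and 72.9 ± 6.9 FPKM in the control group. Dlx6 was lowest at 16.7 ± 1.35 FPKM in the Zfhx3-CKO group and 19.2 ± 1.143 FPKM in the control group. Apart from Dlx1 and Dlx2, the ranges of neighbours in this order did not overlap within either group. Among all 29659 genes ranked by FPKM, Dlx2 stood at rank 116 to 174 in Zfhx3-CKO libraries and 161 to 209 in control libraries, and Dlx6 at rank 3372 to 3906 in Zfhx3-CKO libraries and 2835 to 3242 in control libraries. Dlx1 stood at rank 169 to 179 in Zfhx3-CKO libraries and 165 to 184 in control libraries.

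The summed FPKM of the 5 members was 493, 582 and 452 in Zfhx3-CKO libraries 1, 2 and 3, and 466, 495 and 510.1 in control libraries 1, 2 and 3. Dlx1 made up 28.6% to 30.5% of this sum in Zfhx3-CKO libraries and 28.8% to 29.8% in control libraries. Dlx2 made up 30.9% to 35.4% in Zfhx3-CKO libraries and 27.1% to 31.3% in control libraries. The share of Dlx6 was 3.12% to 3.42% in Zfhx3-CKO libraries and 3.69% to 4.14% in control libraries, without overlap. The ratio of Dlx2 to Dlx1 FPKM was 1.01 to 1.24 in Zfhx3-CKO libraries and 0.941 to 1.05 in control libraries, and that of Dlx5 to Dlx6 was 3.74 to 4.54 in Zfhx3-CKO libraries and 3.58 to 4.23 in control libraries. Both of these ratios overlapped between the groups. These ratios share counts with the members' own levels and were not tested.

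**Figure D2:**
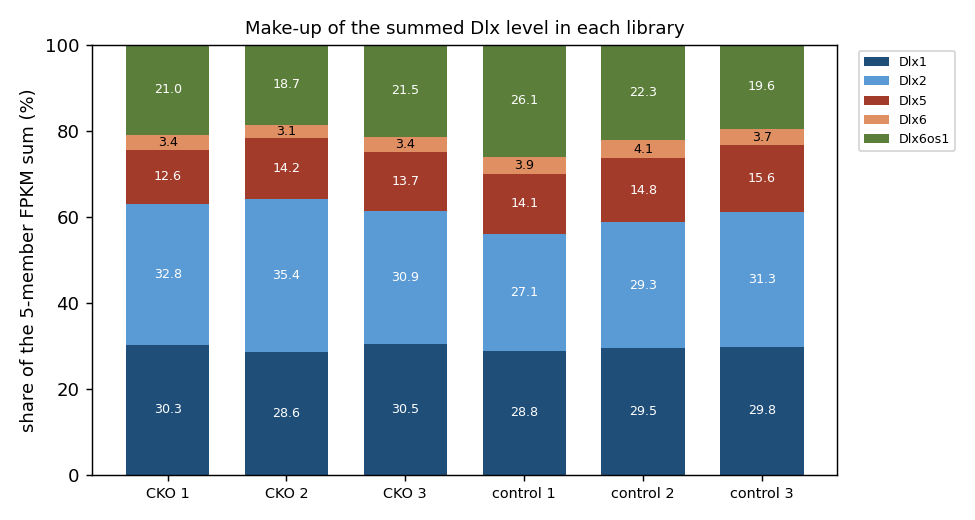
Share of each member in the summed FPKM of the 5 members, in percent, one stacked column per library with Zfhx3-CKO libraries 1 to 3 left of control libraries 1 to 3. Dlx1 keeps close to the same share in all 6 libraries (28.6% to 30.5%), and Dlx6 is the smallest in each.

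The spread between libraries was wider than counting error. Dlx2 varied by 19.9% of its mean between Zfhx3-CKO libraries and by 11.2% between control libraries (coefficient of variation of CPM), where its lowest count of 6046 gives a counting error of 1.29%. Dlx6, with 723 to 817 counts per library, varied by 7.97% between Zfhx3-CKO libraries and 6.37% between control libraries, where counting error was up to 3.72%. Dlx1 varied by 9.45% between Zfhx3-CKO libraries and 5.9% between control libraries, and Dlx5 by 17.3% between Zfhx3-CKO libraries and 9.1% between control libraries. Dlx6os1 varied by 5.39% between Zfhx3-CKO libraries and 10.04% between control libraries.

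Within the Zfhx3-CKO group, library 2 stood high for the family. All 5 members were higher in it than in Zfhx3-CKO libraries 1 and 3, as were 37.3% of all tested genes, and 3 of the 5 (Dlx1, Dlx2 and Dlx5) were at their highest of all 6 libraries there, as were 21% of tested genes. Relative to the control mean, Dlx2 stood at 0.17, 0.53 and -0.02 (log2 CPM) in Zfhx3-CKO libraries 1, 2 and 3, and Dlx5 at -0.24, 0.19 and -0.21. Over the same libraries the median of the cortical excitatory markers stood at 1.81, 0.09 and 1.92, and that of medial ganglionic eminence (MGE) markers at 0.49, 0.86 and 1.13. In control libraries 1, 2 and 3 Dlx2 stood at -0.18, 0.03 and 0.15 and Dlx5 at -0.14, 0.02 and 0.12, with the cortical median between -0.02 and 0.03. The Zfhx3-CKO library with cortical markers at the control level was the one with the most Dlx1, Dlx2 and Dlx5 RNA. In the same library Dlx6 (-0.07) and Dlx6os1 (-0.02) lay below their control means. The part of cortical or other RNA in the members' levels was not tested. Without Zfhx3-CKO libraries 1 and 3, where the remaining Zfhx3-CKO library takes its spread from the controls, Dlx2 had a log2 fold change of 0.53. For the other 4 members it was 0.22 (Dlx1), 0.18 (Dlx5), -0.08 (Dlx6) and -0.02 (Dlx6os1). The library kept was the one with the most Dlx2 RNA, and this fit was chosen with earlier results known. A high Dlx2 estimate was thus built into the choice. Calls in this fit rest on 1 Zfhx3-CKO library, where 9.9% of tested genes were called and 4.97% called higher. No call of any of the 5 members is therefore drawn from it.

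**Figure D3:**
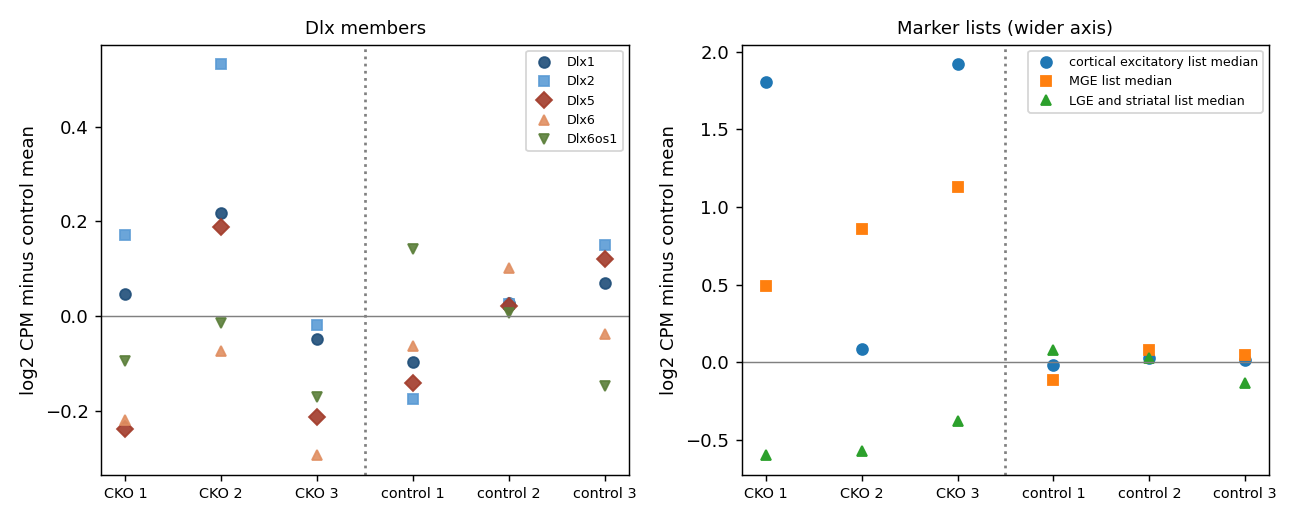
Left, log2 CPM of each Dlx member minus its control mean, by library; right, the same for the medians of 3 marker lists on a wider axis. The Dlx members are highest in Zfhx3-CKO library 2 among the Zfhx3-CKO libraries, where the cortical excitatory median is 0.09 against 1.81 and 1.92 in libraries 1 and 3.

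Genes that act upstream of the Dlx genes were compared next. Of 5 regulators none passed edgeR's test, with a median log2 fold change of 0.48 beside 0.00 for all tested genes; at an unadjusted p under 0.05 there were 2, Gsx2 and Neurog2, both above 0, beside 25.6% of all tested genes. Neurog2 is also one of the cortical excitatory markers, and was measured at 28.3, 7.03 and 17.7 CPM in Zfhx3-CKO libraries 1, 2 and 3 and at 4.83 to 11.1 CPM in control libraries. Gsx2, the homeodomain factor that patterns the LGE, was measured at 28.7, 31.6 and 19.0 CPM in Zfhx3-CKO libraries and 16.5, 17.9 and 22.6 CPM in control libraries (log2 fold change 0.48, SE 0.20, edgeR adjusted p 0.177). Zfhx3-CKO library 3 lay inside the control range. Of 6 fits with 1 library left out, Gsx2 passed in 1, without Zfhx3-CKO library 3 (log2 fold change 0.67, edgeR adjusted p 0.0196). It stood at 0.33 without Zfhx3-CKO library 2 (edgeR adjusted p 0.323) and at 0.39 without control library 1 (0.417). Without Zfhx3-CKO libraries 1 and 3 its log2 fold change was 0.74. With libraries scaled by their Gad1, Gad2 and Slc32a1 counts Gsx2 also passed (log2 fold change 0.69, edgeR adjusted p 0.0442). That scaling moved the median of all tested genes to 0.22. Gsx1 (log2 fold change 0.48, edgeR adjusted p 0.354) and Meis2, a cofactor of Dlx in the LGE (log2 fold change -0.02, edgeR adjusted p 0.852), did not pass.

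Genes known to be lower in the forebrain of Dlx1 and Dlx2 mutant mice did not move as a block. Of 13 such genes 1 rose, 4 fell and 8 did not pass, with a median log2 fold change of -0.18; 3.87% of all tested genes were called higher and 3.48% lower. The 4 that fell were Ikzf1, a zinc-finger factor of striatal neurons (-2.80 on the log2 scale), Cxcr4, a chemokine receptor of migrating interneurons (-0.84), Bcl11b, a striatal zinc-finger factor (-0.50), and Gad2. Sp9, a zinc-finger factor of the LGE, rose (log2 fold change 1.01, edgeR adjusted p 0.00244). Gad2, the second GABA-synthesising enzyme, fell to 419, 412 and 423 CPM in Zfhx3-CKO libraries, against 536, 580.2 and 487 CPM in control libraries (log2 fold change -0.35, SE 0.08, edgeR adjusted p 0.0293). That call was lost without Zfhx3-CKO library 1 (0.11), control library 1 (0.126) or control library 2 (0.134), and the call of Bcl11b without the same libraries (0.124, 0.149 and 0.146).

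Gad1, the first GABA-synthesising enzyme, had a log2 fold change of -0.06 (95% interval -0.22 to 0.09; edgeR adjusted p 0.602), and Slc32a1, the vesicular GABA transporter, one of -0.04 (95% interval -0.26 to 0.18; edgeR adjusted p 0.838). Of the 5 genes on the list of GABA synthesis and transport, 1 fell, which was Gad2, and 4 did not pass, beside 3.48% of all tested genes called lower. All 5 estimates were below 0, with a median of -0.06. Of the 4, Abat came nearest to passing (log2 fold change -0.30, 95% interval -0.47 to -0.12, edgeR adjusted p 0.0528). Against Gad2 FPKM, the ratio of Dlx1 was 1.93 to 2.38 in Zfhx3-CKO libraries and 1.47 to 1.82 in control libraries, without overlap. The ratios of Dlx2 and Dlx6os1 to Gad2 did not overlap either, and those of Dlx5 and Dlx6 did. All of them share the fall of Gad2, whose FPKM was 69.9 to 71.8 in Zfhx3-CKO and 83.5 to 98.4 in control libraries. Against Gad1 FPKM, Dlx1 stood at 3.15 to 4.05 in Zfhx3-CKO libraries and 3.06 to 3.61 in control libraries, which overlap.

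Of 6 genes known to be higher in Dlx1 and Dlx2 mutants, 2 rose, 3 did not pass and Otp was below the filter. Over all tested genes 3.87% were called higher. The median log2 fold change of the list was 0.48, beside 0.00 for all tested genes. Nrp2, a receptor for class 3 semaphorins, was measured at 21.5, 24.2 and 42.3 CPM in Zfhx3-CKO libraries and 14.0, 16.8 and 13.6 CPM in control libraries (log2 fold change 0.99, SE 0.25, edgeR adjusted p 0.0477). Olig2, a factor of oligodendrocyte precursors and ventral progenitors, was measured at 55.8, 63.5 and 63.7 CPM in Zfhx3-CKO libraries and 36.5, 43.6 and 49.4 CPM in control libraries (log2 fold change 0.50, SE 0.12, edgeR adjusted p 0.0395). The call of Nrp2 was lost without Zfhx3-CKO library 1 or any 1 control library, at log2 fold changes of 0.93 to 1.17 (edgeR adjusted p 0.0509 to 0.181), and in both limma-trend fits (0.106 and 0.0956). That of Olig2 was lost without Zfhx3-CKO library 1 or 2 or control library 1 or 2, at 0.40 to 0.56 (edgeR adjusted p 0.0543 to 0.14), and in both limma-trend fits (0.0532 and 0.0565). Both Nrp2 and the cortical markers were highest in Zfhx3-CKO library 3. Without that library Nrp2 still passed (log2 fold change 0.63, edgeR adjusted p 0.019). Without Zfhx3-CKO libraries 1 and 3 its log2 fold change was 0.71. The other 4 markers of the oligodendrocyte lineage summed to 77.4, 64.8 and 100.6 CPM in Zfhx3-CKO libraries 1, 2 and 3 and to 67.9 to 72.6 CPM in control libraries, which overlap, and none of the 4 passed edgeR's test. The part of cortical RNA in the Nrp2 level was not tested. The list shares Gsx1 and Gsx2 with the regulators.

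**Figure D4:**
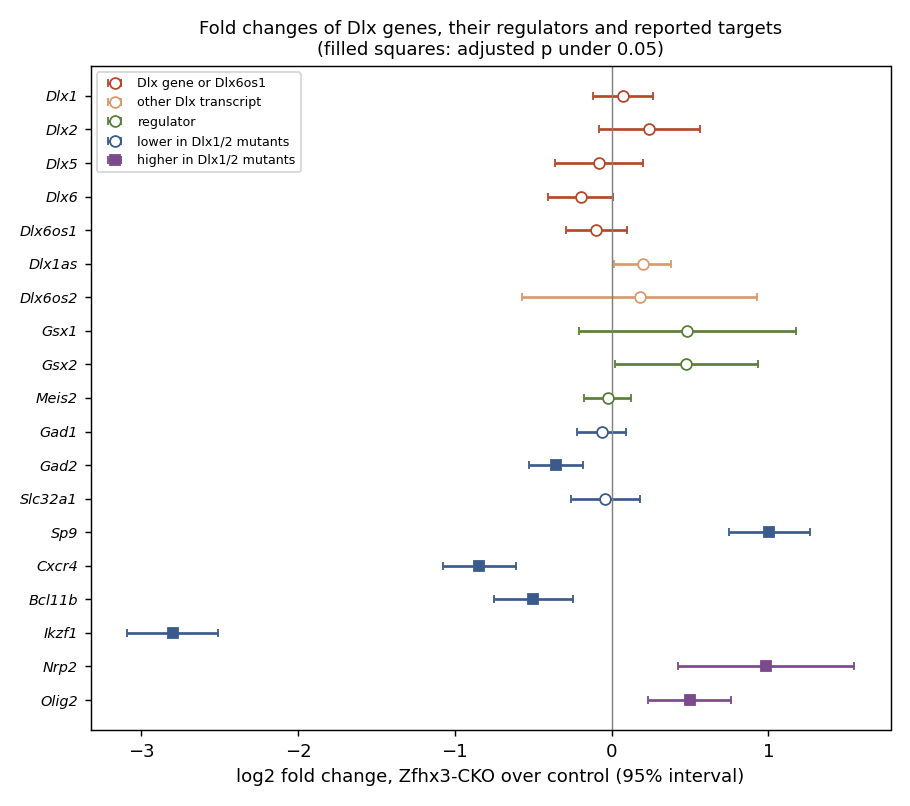
Log2 fold change, Zfhx3-CKO over control, with its 95% interval from edgeR's quasi-likelihood test, for the Dlx genes and Dlx6os1 and for regulators and reported targets; filled squares have an adjusted p under 0.05. The intervals of Dlx1, Dlx2, Dlx5, Dlx6 and Dlx6os1 all span 0, whereas Ikzf1 lies at -2.80 and Sp9 at 1.01.

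Proteins that work with the Dlx factors or with Dlx6os1 followed. Of 8 such genes none passed edgeR's test, with a median log2 fold change of 0.07; at an unadjusted p under 0.05 there were 2 of the 8, Grip1 and Sox2, where 25.6% of all tested genes had such a p. Of 4 genes of chromosome 6 reported to respond to Dlx6os1, Rbm28, a nucleolar RNA-binding protein gene, rose to 122, 101 and 109.6 CPM in Zfhx3-CKO libraries, against 85.5, 83.5 and 85.3 CPM in control libraries (log2 fold change 0.39, SE 0.08, edgeR adjusted p 0.0263). That call was lost without Zfhx3-CKO library 1 (0.094), control library 1 (0.108), control library 2 (0.119) or control library 3 (0.0766). Without Zfhx3-CKO libraries 1 and 3 the log2 fold change of Rbm28 was 0.25. Umad1 (log2 fold change -0.42, edgeR adjusted p 0.11) and Lsm8 (log2 fold change 0.09, edgeR adjusted p 0.722) did not pass, and Akr1b8 was below the filter. Thus 1 of the 3 tested genes of this list was called higher, beside 3.87% of all tested genes. Umad1 passed in 1 of 16 alternatives, without Zfhx3-CKO library 2 (-0.54, edgeR adjusted p 0.0434). It stood at -0.30 without Zfhx3-CKO library 1 (edgeR adjusted p 0.285) and at -0.19 without Zfhx3-CKO libraries 1 and 3.

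The neighbours of both loci were counted next. Of 10 protein-coding genes within 500 kb of Dlx1 and Dlx2, all tested, 0 passed in edgeR's test, and of 2 such genes around Dlx5 and Dlx6, 0 passed. Over all tested genes 7.35% were called, so counts of 0 among so few genes say little about the loci. The nearest on each side were Metap1d, a mitochondrial aminopeptidase gene (log2 fold change 0.29, edgeR adjusted p 0.258), and Itga6, an integrin gene (0.32, adjusted p 0.0993), at the first locus, and Sem1 (0.27, adjusted p 0.188) and Sdhaf3 (-0.22, adjusted p 0.432) at the second.

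Over the 6 libraries the members were compared by their profiles. As a measure of likeness, the root mean square difference of log2 CPM, each gene centred on its own mean, was taken over 10456 genes of at least 10 CPM. Dlx1 was nearest to Mta2 (0.0097) and Nufip1 (0.0191), Dlx2 to Cdk2ap1 (0.0444) and Kif18b (0.0468), and Dlx5 to Acaa2 (0.0385) and Nfatc2ip (0.0413). Dlx6 was nearest to Wiz (0.0354) and Tmtc3 (0.0369), and Dlx6os1 to Zzz3 (0.0276) and Mto1 (0.0315). Dlx2 and Dlx1 differed by 0.123, Dlx5 and Dlx6 by 0.126, and Dlx6 and Dlx6os1 by 0.117, where the median over all genes was 0.159 from Dlx1, 0.203 from Dlx5 and 0.178 from Dlx6. Dlx2 lay further from Dlx6os1 (0.267) and Dlx6 (0.251) than the median gene did (0.247). Dlx5 and Dlx6os1 differed by 0.190, which is above the median from Dlx6os1 (0.168) and below the median from Dlx5 (0.203). With 6 libraries many genes lie close to any profile, so these names describe the libraries only.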

How the data were processed

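RNA-seq of mouse LGE came in a table of 29659 genes and in a subset of 3726 genes. The submitters' processing notes list edgeR, StringTie, HISAT2 and bcl2fastq 2.17.1.14, and as builds mm10 and GRCm38.p4, with no roles; strand use and the annotation release are not given. The deposited counts are whole and unnormalised, one value per gene and library, and come from a TruSeq kit that per the labels took 1 ug of total RNA. The FPKM values are the authors' scaling by gene length and depth, as the headers name them. The deposited log2 fold changes, linear fold changes, p-values and mean signal (baseMean) are the authors' own; only the first and the p-values were used, to quote. Control columns of the full table name the driver and replicate number. Its other columns carry a code and a number, and were taken as Zfhx3-CKO, the remaining group; they hold the same values as the shorter table's columns, which carry the sample titles.

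The test was edgeR's quasi-likelihood test (edgeR 4.0.16, limma 3.58.1, R 4.3.3) on counts of all genes, with TMM factors, group as the sole term, a Benjamini-Hochberg threshold of 0.05, and filterByExpr with its minimum set to 10 counts, which kept 16551 genes and dropped 13108. CPM are counts over TMM-scaled totals, and SE and 95% intervals come from the F statistic. Log2 levels by library use an offset of 0.5 CPM. The edgeR fit was tested on simulated data with known fold changes. No 2 replicates agreed within sampling noise (chi-square per gene 3.35 or more). The 5 gene names, the gene lists and the rule for named genes (all members, other Dlx names, listed genes past the threshold and a fixed set, neighbours, nearest patterns) were chosen with earlier results of these data known, as was the fit without Zfhx3-CKO libraries 1 and 3. Alternatives were RLE factors, library totals, scaling by Gad1, Gad2 and Slc32a1, no or a strict filter (5 CPM in 3 libraries), DESeq2 1.42.0, limma-trend on log2(FPKM + 1) or (FPKM + 0.1), a replicate block and single libraries left out. Promoter windows are RefSeq's; for Dlx5 and Dlx6 none was used. Some genes of the lists are not reported here, and the counts are without them. Gene models are GENCODE vM21 (GRCm38).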

Additional observations from a re-analysis of the deposited data

How the results depend on the processing

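Across 16 alternatives for each of the 5 members (80 fits), no fit with more than 1 library in each group called a member. Without Zfhx3-CKO libraries 1 and 3, which leaves 1 Zfhx3-CKO library, Dlx2 had a log2 fold change of 0.53. Dlx1 stayed between 0.0020 and 0.29 and Dlx2 between 0.08 and 0.53, both above 0. Leaving out single libraries gave 0.0020 to 0.13 for Dlx1, 0.08 to 0.36 for Dlx2, -0.23 to 0.00069 for Dlx5 (above 0 without Zfhx3-CKO library 1), -0.26 to -0.14 for Dlx6 and -0.17 to -0.02 for Dlx6os1. Dlx5 was also above 0 without Zfhx3-CKO libraries 1 and 3 (0.18). Scaling each library by its Gad1, Gad2 and Slc32a1 counts moved the median of all genes to 0.22 and put Dlx5 at 0.14, Dlx6 at 0.023, Dlx6os1 at 0.12, Gad1 at 0.15 and Slc32a1 at 0.17; relative to that shift Dlx2 (0.46, adjusted p 0.0522) and Dlx1 (0.29, adjusted p 0.0703) were the members above it. With single libraries left out Slc32a1 ranged from -0.105 to 0.0602 (above 0 without Zfhx3-CKO library 1; also 0.0272 without libraries 1 and 3), and Lsm8 from -0.0272 (without Zfhx3-CKO library 2) to 0.222. Of the listed genes, 4 were called higher and 4 lower; scaling by the GABAergic genes gave 13 and 2, the replicate block 1 and 2, either limma-trend fit 2 and 4, and single libraries left out 1 to 7 and 2 to 6. Over all genes, 640 were higher and 576 lower, 1021 and 755 with DESeq2, 1075 and 786 with no filter, 3189 and 292 with the GABAergic scaling and 156 to 1082 and 131 to 1014 without single libraries. Same-numbered libraries did not deviate together (correlations -0.0506, -0.0892 and -0.29), so the numbers give no pairing; under a replicate block Dlx2 had 0.23 and Dlx6 -0.20, and 176 genes were higher and 136 lower. Apart from the settings named here, the cause of these shifts was not tested. For Dlx1, Dlx2, Dlx5 and Dlx6os1 counting error was small beside the spread between 3 libraries a group, so depth adds little to their intervals. For Dlx6 counting error was up to 3.72%, beside a spread of 7.97% between Zfhx3-CKO and 6.37% between control libraries, so depth adds to its interval.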
